A study of Mus musculus with 12 samples.

Results

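The 9 genes described here are those of a protease family and its inhibitors, 6 matrix metalloproteinases (MMPs; Mmp8, Mmp9, Mmp12, Mmp13, Mmp14 and Mmp19) and 3 tissue inhibitors of metalloproteinases (TIMPs; Timp1, Timp2 and Timp3). They were taken by gene symbol, through their Ensembl identifiers, and are 9 of the 48795 genes listed in the count tables. Of the 9, 7 passed the filter on low counts (normalized counts relative to library size, CPM, above 1.5 in at least 2 libraries) and are among the 11228 genes tested. Timp1 and Timp3 did not pass and are described by their counts.

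RNA was sequenced from mouse bone marrow-derived macrophages (BMDMs), cells grown from bone marrow in culture with M-CSF, in 12 libraries, 2 for each of 6 groups. WT cells came from C57BL/6 mice and the others from the strain C57BL/6NJ-Acod1em1(IMPC)J/J, labelled Acod1-/-. Acod1 encodes the mitochondrial enzyme that makes itaconate. Cells of each genotype received vehicle, particulate matter (PM) at 20 μg/cm2 for 24 hours, or 4-octyl itaconate (OI), a form of itaconate that enters cells, at 0.25 mM for 2 hours before PM. No group received OI without PM, so every result for OI is for cells that also received PM. The labels do not say whether the 2 libraries of a group came from separate mice or cultures, and p-values therefore measure the spread between these libraries, which may be technical.

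MMPs are zinc-dependent proteases that cut collagens, elastin and other proteins around cells, and most are secreted as inactive proenzymes. TIMPs bind the catalytic zinc site of active MMPs and block it, and TIMP2 also takes part in the activation of the MMP2 proenzyme at the cell surface by MMP14. Macrophages are the main source of MMP12, the macrophage elastase, which is known for its part in the loss of lung elastin in smoke-exposed mice.

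Normalized CPM showed members moving in different directions under the same treatment. Mmp14, Mmp8 and Mmp9 rose with PM in both genotypes. With OI before PM, Mmp12 was higher, and Mmp9, Mmp14 and Timp2 were lower, than with PM alone in both genotypes. Mmp9 was higher in libraries labelled Acod1-/- under each of the 3 treatments.

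What the 6 MMPs share, with related proteases, is the zinc-binding site, and the coding bases of that site are shown because they are the signature of the enzymes whose levels are compared here. Each stretch was read from a GENCODE M21 transcript (GRCm38), runs 5′ to 3′ on the coding strand over 33 bases, lies within 1 exon, and has the codons of the 3 zinc-binding histidines in capitals.
Mmp12: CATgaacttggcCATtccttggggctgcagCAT
Mmp13: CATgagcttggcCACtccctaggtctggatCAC
Mmp8: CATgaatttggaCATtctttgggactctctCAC
Mmp14: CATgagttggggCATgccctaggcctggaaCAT
Mmp19: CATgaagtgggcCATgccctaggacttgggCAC
Mmp9: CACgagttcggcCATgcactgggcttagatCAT
Of these 33 bases, Mmp13 shares 25 with Mmp12, Mmp8 shares 24, Mmp14 and Mmp19 share 23 each, and Mmp9 shares 21. The stretches lie at chr9:7352914-7352946 in Mmp12, chr9:7276573-7276605 in Mmp13, chr9:7563086-7563118 in Mmp8, chr14:54437627-54437659 in Mmp14 and chr10:128795673-128795705 in Mmp19, each in exon 5, and at chr2:164951133-164951165 in exon 8 of Mmp9.

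The inhibitors carry their own signature, the pair of cysteines at the start of the mature protein that reaches the zinc of the protease. The 27 coding bases that begin there are shown with the codons of both cysteines in capitals.
Timp1: TGTagcTGTgccccaccccacccacag
Timp2: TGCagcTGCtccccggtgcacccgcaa
Timp3: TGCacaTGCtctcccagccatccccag
Timp1 shares 18 of these bases with Timp2 and Timp3 shares 17. They lie in exon 2 of Timp1 (chrX:20871111-20871137), in exon 1 of Timp2 (chr11:118354986-118355012, minus strand) and in exon 1 of Timp3 (chr10:86300923-86300949). All 6 MMP genes lie on the plus strand, and Mmp13 (chr9:7272514-7283331), Mmp12 (chr9:7344381-7369499) and Mmp8 (chr9:7558456-7568485) lie near each other on chromosome 9. Exons of Mmp12 overlap those of Mmp1b, exons of Mmp19 overlap those of Gm47093 and Tmem198b, and exons of Timp3 overlap those of Syn3, and since the handling of strand in counting is not given in the sources used here, counts of these members may hold reads of those genes. For Mmp12 the overlap is 157 bp, and Mmp1b itself had at most 1 count in any library, against 274224 to 1083789 counts of Mmp12.

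Libraries held 33616577 to 36817898 counts. Acod1 itself was measured at 94.1 and 108 CPM in the PM libraries labelled Acod1-/-, against 170 and 181 CPM in WT, and the difference between genotypes did not pass under any treatment (log2 -0.81, -0.80 and -0.81 with vehicle, PM and OI+PM; adjusted p = 0.492, 0.0807 and 0.0509 by edgeR's quasi-likelihood test). Counts per gene do not show which exons the reads cover, so the genotype is given as the label states it. In other assays, the study reports itaconate after PM in WT BMDMs and none detected in Acod1-/- BMDMs. It also reports no Acod1 expression by qPCR in alveolar macrophages of Acod1-/- mice. Nnt, a gene with a known deletion in C57BL/6J but not C57BL/6N mice, was named after its values were seen. It lay at 21.2 to 37.7 CPM in the 6 WT libraries and at 52.0 to 74.3 CPM in the 6 others, and the labels give no substrain for WT while the study's methods name C57BL/6NJ. The genotype and any substrain difference cannot be told apart in any comparison between WT and labelled Acod1-/- libraries.

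All 10 macrophage markers listed passed the filter, with summed levels of 24470 to 28460 CPM in the 4 PM libraries and 15040 to 17220 CPM in the 8 others. Most of that difference was Lyz2 (9992 and 19460 CPM in WT with vehicle and PM, 9129 and 19620 CPM in labelled Acod1-/-), while Mrc1 was at 429 and 260 CPM and at 565 and 281 CPM. With OI 8 of the 10 were lower by the adjusted p in each genotype and 1 was higher in WT. Over all genes 43.9% in WT and 34.6% in labelled Acod1-/- passed that rule in either direction. Mrc1, Mertk and Fcgr1 were called lower in both genotypes and Cd14 in labelled Acod1-/- (log2 -1.53), where 8.49% and 7.98% of all genes were called lower. These falls stood beside those of Mmp9, Mmp14 and Timp2 given below. Of 13 neutrophil markers 3 passed, and 8, Ly6g, Mpo and Elane among them, had at most 10 counts in every library. The sum of the neutrophil list ran from 7.08 to 7.64 CPM with vehicle, 13.4 to 20.5 CPM with PM and 29.9 to 61.4 CPM with OI+PM, most of it S100a8, which OI raised (log2 1.82 and 1.33 in WT and labelled Acod1-/-) while it lowered the other 2 that passed, S100a9 (-1.93 and -1.66) and Ngp (-3.12 and -1.90). With PM 2 of the 3 were higher by the adjusted p in each genotype, S100a8 called in both and S100a9 in labelled Acod1-/- (log2 1.30). Over all genes 12.6% in WT and 12% in labelled Acod1-/- were higher by the adjusted p. S100a9 and Ngp had group means above 1.5 CPM only in PM groups, and their being tested depended on those libraries. Of 9 osteoclast markers 7 passed, with a sum of 916 to 1383 CPM, most of it Atp6v0d2 (group means of 731 to 1211 CPM). The other 2, Calcr and Oscar, had 10 counts or fewer in every library. With PM, Ctsk was called higher in both genotypes (log2 1.36 and 1.37) and Acp5 in labelled Acod1-/- (1.06). Acp5 was at group means of 52.6, 99.4 and 34.9 CPM in WT and 77.9, 162 and 43.3 CPM in labelled Acod1-/- with vehicle, PM and OI+PM, called lower with OI in both (log2 -1.51 and -1.90), whereas Itgb3 was called higher with OI in both (1.5 and 1.07). Ocstamp, tested only through the labelled Acod1-/- vehicle libraries, was called higher there than in WT (2.24) and lower with PM (-2.88). For other cell types, 1 of 9 fibroblast, 1 of 9 dendritic cell and 1 of 8 lymphoid markers passed. The fibroblast marker was Postn, at group means of 0.15 to 1.72 CPM, called lower with PM in WT (log2 -1.44), lower with OI in labelled Acod1-/- (-2.94) and higher in labelled Acod1-/- than in WT with PM (1.67), and the lymphoid marker was Cd79b, called lower with OI in both genotypes (-1.60 and -1.49) from no more than 3.23 CPM. The part of any of these marker changes in the members' values was not tested. In RNA from whole cultures, fewer cells of a type and less RNA per cell cannot be told apart.

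**Figure D1:**
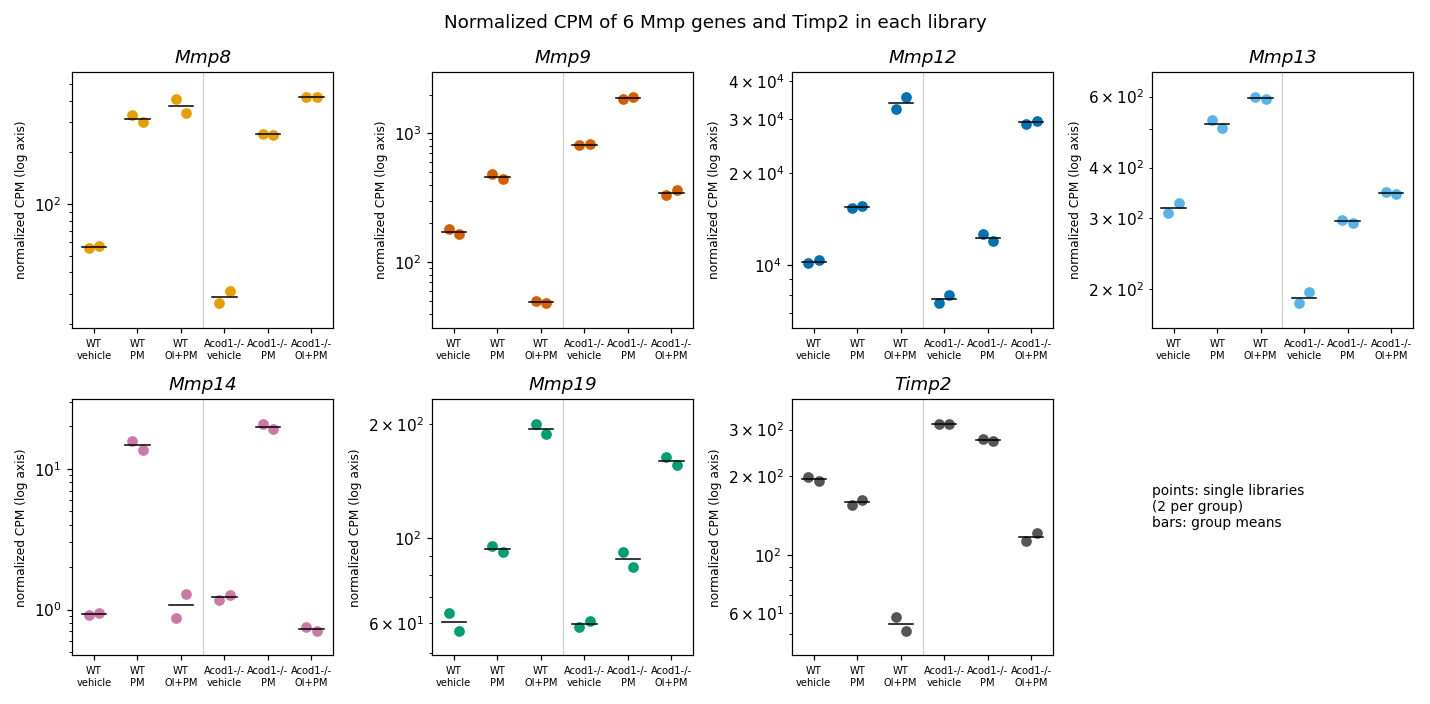
Normalized CPM (log axis) of the 6 MMPs and Timp2 in each of the 12 libraries, with groups on the horizontal axis, points for single libraries and bars for group means of 2. Mmp9 is highest in the PM libraries labelled Acod1-/- (1835 and 1924 CPM) and lowest in WT libraries with OI+PM (48.0 and 49.7 CPM), while Mmp12 is highest with OI+PM.

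Per length, as normalized reads per kilobase of exon (RPKM), Mmp12 was the highest member in every group. Its mean RPKM was 1417 ± 24.1 (SD, n = 2) in WT with vehicle, and the next member, Mmp13, stood at 119 ± 4.46. Timp2 (51.0 and 49.0 RPKM in its 2 libraries) and Mmp9 (48.9 ± 3.26 RPKM) followed in those cells and did not differ beyond their spread, and Mmp8 (23.3 ± 0.34 RPKM) and Mmp19 (17.1 ± 1.30 RPKM) came after them. Timp1, Mmp14 and Timp3 had means below 1 RPKM there. Mmp8 and Mmp9 changed rank most between groups, each from 2 to 6. Mmp9 had rank 6 of 9 in WT with OI+PM (13.8 ± 0.34 RPKM, beside Timp2 at 14.0 ± 1.18) and rank 2 in libraries labelled Acod1-/- with PM (531 ± 17.7 RPKM), and Mmp8 had rank 6 with vehicle (11.9 ± 1.36 RPKM) and rank 2 with OI+PM (174 ± 0.28 RPKM) in labelled Acod1-/-. Mmp14 reached 2.48 ± 0.25 RPKM in WT with PM and 3.35 ± 0.21 RPKM in labelled Acod1-/- with PM, and was at 0.21 RPKM or less on average in the other 4 groups.

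The 6 MMPs together took 1.14% and 1.17% of all counts in WT with vehicle, 1.70% and 1.69% with PM, and 3.19% and 3.23% with OI+PM. The labelled Acod1-/- libraries had shares of 0.916% and 0.964%, 1.52% and 1.47%, and 2.92% and 2.95%. Mmp12 made up 67.9% to 92.0% of the summed MMP RPKM, and its share was lowest in the PM libraries labelled Acod1-/-, where Mmp9 was highest. The ratio of the MMP sum to the TIMP sum was 30.8 and 33.1 in WT with vehicle, 64.3 and 61.1 with PM and 325 and 393 with OI+PM. The libraries labelled Acod1-/- had ratios of 16.5 and 17.6, then 34.8 and 34.4, then 152 and 144. No 2 of these 6 pairs overlapped. Without Mmp12 the ratio was 3.96 to 4.2 in all 4 vehicle libraries and 10.6 to 12.2 in all 4 PM libraries, whereas with OI+PM it was 30.4 and 31.5 in WT and 15.1 and 14.2 in labelled Acod1-/-. With OI+PM the MMP sum without Mmp12 was lower than with PM, at 462.7 and 429.6 against 497.7 and 464.5 RPKM in WT. In labelled Acod1-/- that sum was 445 and 449 against 765 and 784 RPKM. The TIMP sum was 15.2 and 13.6 against 40.9 and 43.0 RPKM in WT. In labelled Acod1-/- the TIMP sum was 29.4 and 31.6 against 72.3 and 71.0 RPKM. These ratios and sums compare RNA levels and not protein or activity.

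**Figure D2:**
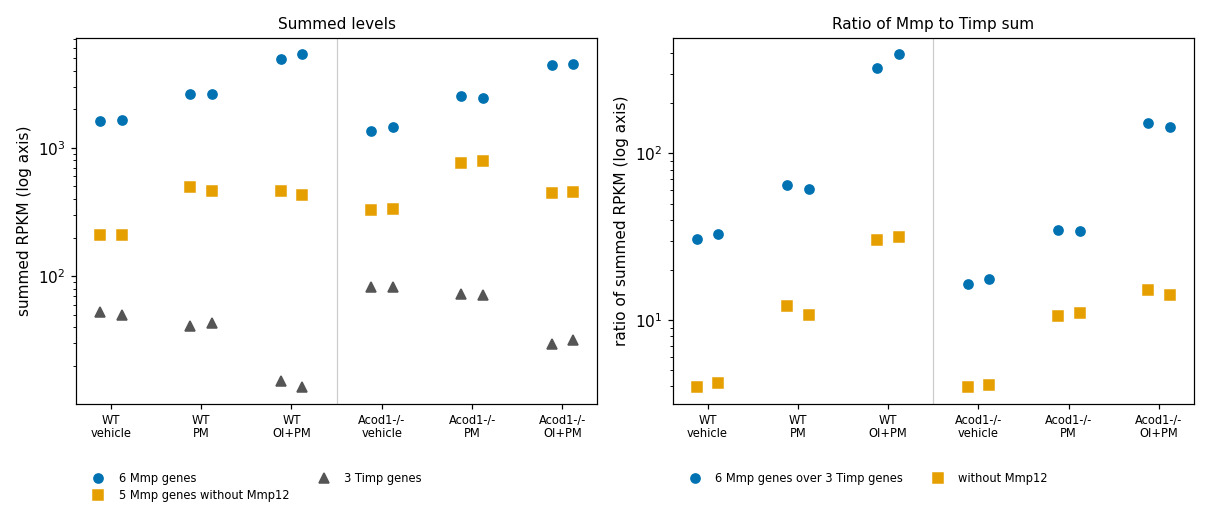
Summed RPKM of the MMPs and the TIMPs (left, log axis) and their ratio (right, log axis) in each library, with and without Mmp12; each point is 1 library. Ratios with Mmp12 rise from 30.8 and 33.1 with vehicle to 325 and 393 with OI+PM in WT, and from 16.5 and 17.6 to 152 and 144 in libraries labelled Acod1-/-.

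To ask what PM changed, PM and vehicle libraries were compared within each genotype, and a gene was called when its adjusted p was 0.05 or less and its log2 fold change at least 1 in size. In WT, 3 of the 7 tested members were called, all higher, against 4.15% of all genes tested (3.02% higher). Of these Mmp14 passed the filter only through the PM libraries in which it was high, and with a filter on every library, which leaves it out, 2 members were called in each genotype. In libraries labelled Acod1-/-, the same 3 members were called, all higher, against 4.5% of genes (3.19% higher). By the adjusted p alone all 6 MMPs were higher with PM in both genotypes and Timp2 was lower in WT, where 24.8% of genes passed that rule in WT (12.6% higher and 12.2% lower) and 23.9% in labelled Acod1-/- (12% higher). The median log2 fold change of the 6 MMPs was 1.05 in WT and 0.94 in labelled Acod1-/-, and 0.69 and 0.67 without Mmp14, beside medians over all genes of 0.01 and 0.00.

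OI was compared with PM alone in PM-exposed cells. In WT, 5 members were called, Mmp12 and Mmp19 higher and Mmp9, Mmp14 and Timp2 lower, against 10.8% of all genes (2.3% higher and 8.49% lower). In labelled Acod1-/-, 4 were called, Mmp12 higher and Mmp9, Mmp14 and Timp2 lower, against 9.83% of genes (1.85% higher and 7.98% lower). By the adjusted p alone 6 and 7 members differed, against 43.9% and 34.6% of genes. The median log2 fold change of the 6 MMPs was 0.23 in WT and 0.48 in labelled Acod1-/- (0.25 and 0.73 without Mmp14). It does not describe the 6 as a set, since 2 of them fell by more than 2 units. The 2 WT libraries with OI+PM differed from each other more than any other pair (mean chi-square per gene 58.5, against 2.61 to 27.3 in the other groups), and the values below are given for both. The WT libraries with PM came next (27.3). In both groups the difference between the 2 libraries went with gene length (Spearman rho -0.61 and -0.60, against -0.29 to 0.36 elsewhere). Deviations from the group mean in their same-numbered libraries had an r of 0.73. Without Mmp14, which was tested only because of its level with PM, the counts were 4 and 3.

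**Figure D3:**
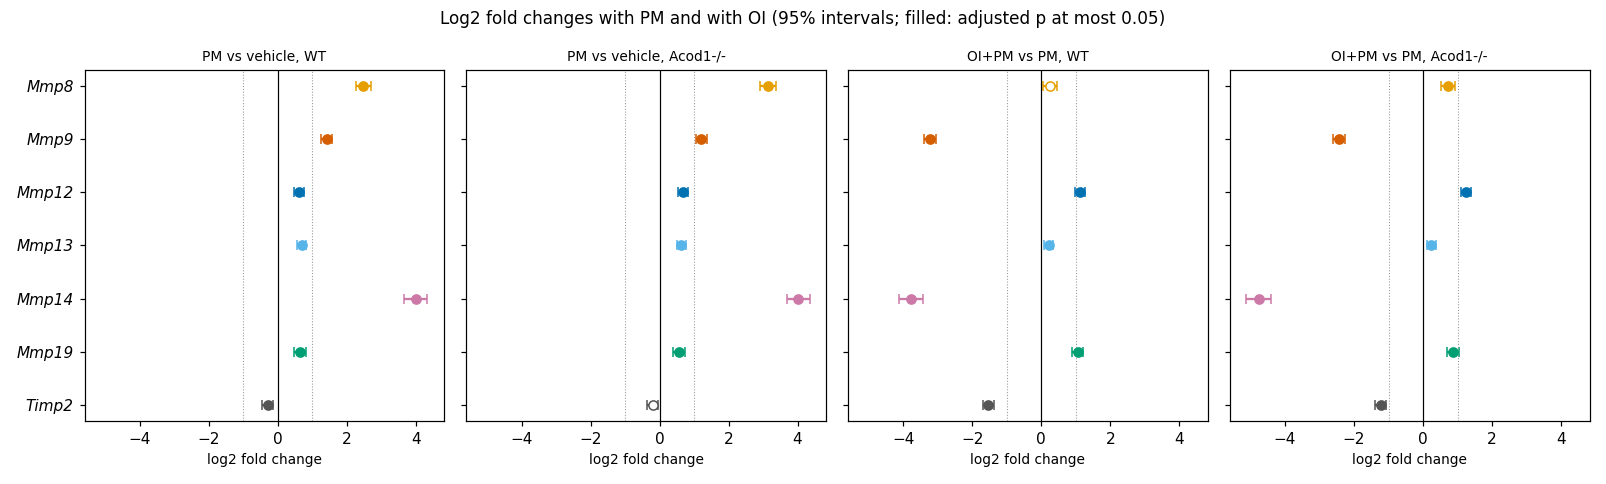
Log2 fold changes (horizontal axis) of the 7 tested members for PM against vehicle and for OI+PM against PM, in WT and in libraries labelled Acod1-/-; bars are 95% intervals, filled points have an adjusted p of 0.05 or less, and dotted lines mark a log2 fold change of 1 in either direction. Mmp14 rises by 3.99 and 4.02 with PM and changes by -3.79 and -4.77 with OI, while Mmp12 rises in all 4 comparisons.

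Mmp12, the macrophage elastase, was at 10130 and 10380 CPM in WT with vehicle, 15440 and 15670 CPM with PM and 32460 and 35610 CPM with OI+PM. In libraries labelled Acod1-/- it was at 7497 and 8004, 12660 and 11980, and 29080 and 29600 CPM. No 2 groups overlapped, the OI+PM libraries were highest and the vehicle libraries lowest in each genotype. The rise with PM passed the adjusted p but not the fold threshold (log2 0.60 ± 0.06 SE in WT and 0.67 ± 0.06 in labelled Acod1-/-; adjusted p = 0.000108 and 4.36e-05, edgeR quasi-likelihood). OI raised Mmp12 further, by log2 1.13 ± 0.06 in WT and 1.25 ± 0.06 in labelled Acod1-/- (adjusted p = 3.82e-07 and 1.85e-07, edgeR). With scaling to total counts, which moved the median of all genes by -0.13 in WT, the WT value was 0.998 and just missed the fold threshold. Against WT, Mmp12 was lower in labelled Acod1-/- by log2 0.40 ± 0.06 with vehicle and 0.34 ± 0.06 with PM (adjusted p = 0.0107 and 0.0237, edgeR), and the value with OI+PM was -0.21 ± 0.06 (adjusted p = 0.0686). Over the alternatives other than leaving out single libraries, the last ran from -0.30 to -0.14. Its adjusted p there was 0.0295 to 0.411 in edgeR or DESeq2. The vehicle difference did not pass without any 1 of its 4 libraries (adjusted p = 0.0657 to 0.157), and the PM difference did not pass in 8 of 12 fits that each left out 1 library (0.0541 to 0.209).

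Mmp8 and Mmp13, secreted collagenases that cut fibrillar collagen, lie in the same cluster as Mmp12 on chromosome 9 and were both higher with PM. Mmp8, also known as neutrophil collagenase, was at 55.8 and 57.0 CPM in WT with vehicle, 329 and 301 CPM with PM and 407 and 341 CPM with OI+PM. In libraries labelled Acod1-/- it was at 26.4 and 31.1, 256 and 253, and 422 and 421 CPM. Vehicle libraries were lowest in both genotypes and the 6 groups did not overlap. PM raised Mmp8 by log2 2.48 ± 0.10 in WT and 3.15 ± 0.10 in labelled Acod1-/- (adjusted p = 2.95e-07 and 6.38e-08, edgeR). OI gave log2 0.25 ± 0.09 in WT (adjusted p = 0.0556, edgeR) and a rise of 0.73 ± 0.09 in labelled Acod1-/- (adjusted p = 0.000183). The WT value was 0.37 (adjusted p = 0.00463) without replicate 2 of OI+PM, 0.12 (0.248) without replicate 1 and 0.12 (0.397) with scaling to total counts. Against WT, Mmp8 was lower in labelled Acod1-/- with vehicle by log2 0.97 ± 0.10 (adjusted p = 0.00108, edgeR), just short of the fold threshold, and was called at -1.09 without replicate 2 of the labelled Acod1-/- vehicle libraries. With PM the difference was -0.31 ± 0.09 (adjusted p = 0.155) and with OI+PM 0.17 ± 0.09 (adjusted p = 0.234, both edgeR). Leaving out single libraries gave -0.37 to -0.24 with PM and 0.05 to 0.30 with OI+PM. The neutrophil marker sum was higher beside Mmp8 under PM and OI+PM, mostly through S100a8. S100a9 was also called higher with PM in labelled Acod1-/-, S100a9 and Ngp were lower with OI, and Ly6g, Mpo and Elane stayed at 10 counts or fewer in every library.

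Mmp13, the main collagenase of rodents, was at 309 and 326 CPM in WT with vehicle, 525 and 503 CPM with PM and 599.6 and 593 CPM with OI+PM. In labelled Acod1-/- it was at 184 and 196.9, 297 and 291, and 348 and 345 CPM. In each treatment both WT libraries lay above both labelled Acod1-/- libraries. The rise with PM was log2 0.69 ± 0.06 in WT and 0.63 ± 0.06 in labelled Acod1-/- (adjusted p = 2.09e-05 and 3.27e-05, edgeR). OI added a rise of 0.22 ± 0.06 in WT and 0.24 ± 0.06 in labelled Acod1-/- (adjusted p = 0.0116 and 0.00857), the smallest changes with OI among the members that passed. These 2 values no longer passed with scaling to total counts (adjusted p = 0.301 and 0.0676), nor in WT with an offset for gene length (0.13, adjusted p = 0.192), with the compared groups alone (0.248) or without replicate 2 of PM (0.0587), nor in labelled Acod1-/- without replicate 2 of PM (0.0593) or replicate 1 of OI+PM (0.0576). The difference between genotypes was nearly the same under the 3 treatments, a fall of log2 0.74 ± 0.06, 0.80 ± 0.06 and 0.78 ± 0.06 in labelled Acod1-/- with vehicle, PM and OI+PM (adjusted p = 0.000218, 8.66e-05 and 0.000123, edgeR), under the fold threshold in each and among the 10 smallest p-values of all genes tested in all 3. With OI+PM the adjusted p was 0.133 when the 2 compared groups were fitted alone.

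Mmp9, gelatinase B, which cuts denatured and basement membrane collagens, was at 181 and 165 CPM in WT with vehicle, 482 and 439 CPM with PM and 49.7 and 48.0 CPM with OI+PM. In libraries labelled Acod1-/- it was at 813 and 821, 1835 and 1924, and 332 and 361 CPM. Every labelled Acod1-/- vehicle and PM library lay above every WT library, and the 6 groups did not overlap. PM raised Mmp9 by log2 1.41 ± 0.07 in WT and 1.20 ± 0.07 in labelled Acod1-/- (adjusted p = 8.84e-07 and 2.07e-06, edgeR). OI lowered it (log2 -3.24 ± 0.08 and -2.44 ± 0.07; adjusted p = 2.84e-09 and 7.55e-09), so that it ended below vehicle in both genotypes, by 1.82 ± 0.07 in WT and 1.24 ± 0.07 in labelled Acod1-/- (adjusted p = 2.65e-08 and 3.53e-07).

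The genotypes were compared under each treatment. Mmp9 was the only member called with vehicle and with PM, against 0.481% and 0.561% of all genes (0.249% and 0.258% higher), and Mmp9 and Timp2 were called higher with OI+PM, against 0.917% (0.33% higher). Mmp9 was higher in labelled Acod1-/- by log2 2.24 ± 0.07 with vehicle, 2.03 ± 0.07 with PM and 2.83 ± 0.08 with OI+PM (adjusted p = 6.4e-07, 1.5e-06 and 9.56e-08, edgeR). It had the smallest p of all 11228 genes in each of these comparisons, and by size it ranked 5, 9 and 7. The members were chosen with the genotype difference of Mmp9 already known. Its p-values and ranks, and the counts of called members, therefore repeat that choice and are given as a description. By the adjusted p alone 5, 4 and 3 members differed, against 1.83%, 2.4% and 6.96% of genes. Beside these, the 3 neutrophil markers tested had a median log2 difference of 0.38, 0.94 and 1.21, none called and 1 higher by the adjusted p with PM, where S100a9 was at 1.71 against 3.27 CPM and Ngp at 0.99 against 2.10 CPM. Of the 7 osteoclast markers tested 3, 2 and 2 were higher in labelled Acod1-/- by the adjusted p, and 1 was lower with OI+PM. Acp5 was at 52.6 against 77.9 CPM and Dcstamp at 24.3 against 40.4 CPM with vehicle. Itgb3 went the other way with OI+PM, at 20.0 against 12.4 CPM. Of 10 macrophage markers 1 was higher in each comparison and 1 lower with OI+PM. Adgre1 was at 1330 against 1823, 1445 against 2080 and 932 against 1400 CPM. The part of these markers in the Mmp9 difference was not tested. Leaving out single libraries kept the differences of Mmp9 within 2.17 to 2.31, 1.96 to 2.09 and 2.77 to 2.89.

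**Figure D4:**
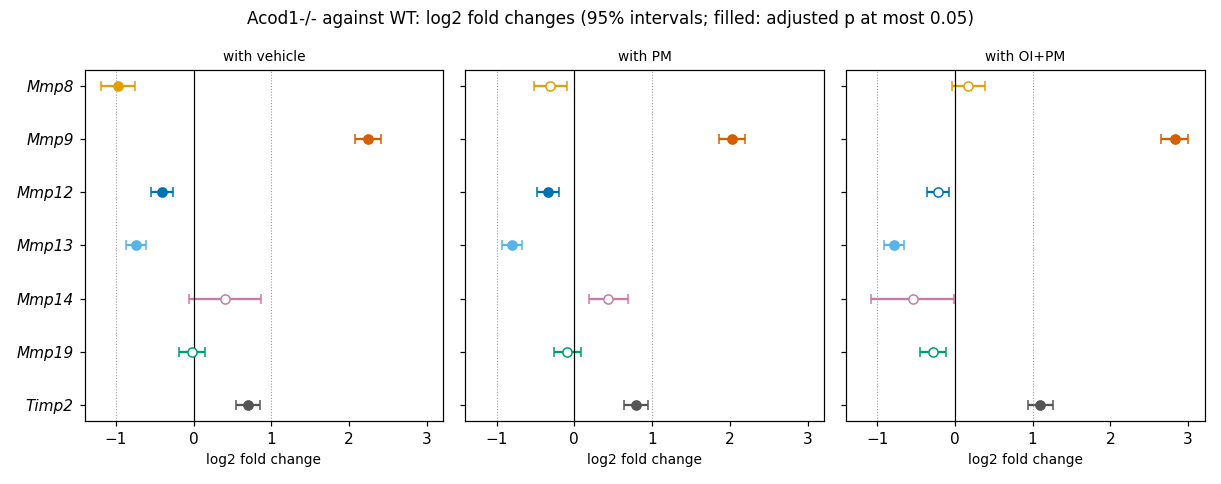
Log2 fold changes of the 7 tested members in libraries labelled Acod1-/- against WT (horizontal axis) with vehicle, PM and OI+PM; bars are 95% intervals, filled points have an adjusted p of 0.05 or less, and dotted lines mark a log2 fold change of 1 in either direction. Mmp9 stands at 2.24, 2.03 and 2.83, Timp2 at 0.69, 0.79 and 1.10, and Mmp13 at -0.74, -0.80 and -0.78.

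Whether treatment acted differently by genotype was tested by interactions, and no member and no gene passed in either (0% called). For PM, 273 of 11228 genes had an unadjusted p under 0.05 in edgeR and DESeq2 called 0 genes. For OI, 717 genes had an unadjusted p under 0.05 and DESeq2 called 5. The fall of Mmp9 with OI was smaller in labelled Acod1-/- than in WT by log2 0.80 ± 0.10, the smallest p of all genes (unadjusted p = 1.55e-05, adjusted p = 0.0825, edgeR), with adjusted p from 8.39e-07 in DESeq2 to 0.577 in edgeR on the compared groups alone, 0.0413 with an offset for gene length, and 0.0141 without replicate 1 of WT with OI+PM. For Mmp8 the rise with PM was larger in labelled Acod1-/- by 0.67 ± 0.14 (unadjusted p = 0.000689, adjusted p = 1, edgeR; 0.0591 to 1 over the alternatives). For Mmp14 the difference in the OI effect was -0.98 ± 0.26 (adjusted p = 0.528, edgeR), and it was called at -1.25 (adjusted p = 0.0457) without replicate 1 of WT with OI+PM. Without that library the same differences of Mmp8 (0.61) and Timp2 (0.40) also had an adjusted p under the threshold (0.0299 and 0.0441), against 0.568 and 0.702 with it.

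Mmp14, a membrane-anchored collagenase also called MT1-MMP, was rare in the absence of PM. Its CPM was 0.91 and 0.94 in WT with vehicle (34 and 37 counts), 15.8 and 13.7 with PM (553 and 476 counts) and 0.87 and 1.29 with OI+PM (29 and 38 counts). In libraries labelled Acod1-/- its CPM was 1.18 and 1.28, 20.9 and 19.1, and 0.75 and 0.71. The 4 PM libraries stood far above the 8 others, among which WT with OI+PM overlapped both vehicle groups. The rise with PM was log2 3.99 ± 0.16 in WT and 4.02 ± 0.15 in labelled Acod1-/- (adjusted p = 2.31e-07 and 1.42e-07, edgeR). It was among the genes tested only because the PM libraries exceeded 1.5 CPM, and being tested at all thus depended on the group in which it was high. OI lowered it (log2 -3.79 ± 0.16 and -4.77 ± 0.16; adjusted p = 4.38e-08 and 1.34e-08). Against vehicle, the OI+PM value was 0.20 ± 0.22 in WT (adjusted p = 0.467) and a fall of 0.74 ± 0.23 in labelled Acod1-/- (adjusted p = 0.0206, and 0.0519 to 0.0962 without any 1 of the 4 libraries compared). The genotypes differed by 0.40 ± 0.21, 0.44 ± 0.11 and -0.54 ± 0.24 under vehicle, PM and OI+PM, with adjusted p of 0.625, 0.0845 and 0.164 in edgeR. Without replicate 1 of WT with OI+PM the last was -0.81. Over the alternatives other than leaving out single libraries, the PM value ran from 0.42 to 0.45. Its adjusted p there was 0.0401 to 0.149 in edgeR or DESeq2.

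Mmp19, an MMP that lacks the collagenase activity of Mmp8 and Mmp13 and cuts basement membrane proteins, was at 63.8 and 57.3 CPM in WT with vehicle, 95.3 and 92.2 CPM with PM and 200.0 and 188 CPM with OI+PM. In labelled Acod1-/- it was at 58.4 and 60.7, 92.1 and 84.1, and 164 and 156 CPM. The genotypes overlapped with vehicle and lay apart with OI+PM, where WT was higher. PM raised it by log2 0.63 ± 0.08 in WT and 0.56 ± 0.08 in labelled Acod1-/- (adjusted p = 0.000261 and 0.000501, edgeR), under the fold threshold. OI raised it by 1.05 ± 0.08 and 0.86 ± 0.08 (adjusted p = 2.33e-06 and 1.1e-05), called in WT alone, and the WT value was 0.92 with scaling to total counts. The genotypes differed by -0.02 ± 0.08, -0.09 ± 0.08 and -0.28 ± 0.08 (adjusted p = 0.995, 0.665 and 0.0534, edgeR). With the replicate number as a block the last had an adjusted p of 0.0375 in edgeR. Over the alternatives other than leaving out single libraries it ran from 0.0264 to 0.394 in edgeR or DESeq2.

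Timp2, the inhibitor that also works with MMP14 on the MMP2 proenzyme, was at 199 and 190.8 CPM in WT with vehicle, 155 and 162 CPM with PM and 57.8 and 51.3 CPM with OI+PM. In libraries labelled Acod1-/- it was at 315.3 and 315.0, 277 and 272, and 112 and 121 CPM. The OI+PM libraries were lowest in each genotype, labelled Acod1-/- was above WT under every treatment, and the 6 groups did not overlap. PM lowered Timp2 in WT by log2 0.30 ± 0.07 (adjusted p = 0.0133, edgeR; 0.109 and 0.0546 without replicate 1 or 2 of vehicle), and the value in labelled Acod1-/- was -0.20 ± 0.07 (adjusted p = 0.0643), which passed in DESeq2 (0.041), with scaling to total counts (0.0347), with an offset for gene length (0.0268) and with the compared groups alone (0.00376). OI lowered it by 1.54 ± 0.07 in WT and 1.23 ± 0.07 in labelled Acod1-/- (adjusted p = 1.02e-07 and 4.56e-07). Timp2 was higher in labelled Acod1-/- by 0.69 ± 0.07, 0.79 ± 0.07 and 1.10 ± 0.07 with vehicle, PM and OI+PM (adjusted p = 0.00104, 0.000426 and 7.23e-05, edgeR), and the last had an adjusted p of 0.127 when the 2 compared groups were fitted alone. The RPKM of Mmp9 over that of Timp2 was 1.0 and 0.95 in WT with vehicle, 3.43 and 2.98 with PM and 0.95 and 1.03 with OI+PM, and it was 2.84 and 2.87, 7.30 and 7.78, and 3.26 and 3.28 in labelled Acod1-/-, so that the PM libraries were highest in each genotype.

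Timp1, the secreted inhibitor that pairs with the MMP9 proenzyme, had 41 and 24 counts in WT with vehicle, 36 and 43 with PM and 11 and 12 with OI+PM. In labelled Acod1-/- it had 45 and 41, 39 and 35, and 17 and 12 counts. All 4 OI+PM libraries were lowest and did not overlap the others, and vehicle and PM libraries overlapped. Timp1 was tested only when every gene with 10 or more counts summed over the libraries was kept (17642 genes), and there OI lowered it by log2 1.62 ± 0.33 in WT and 1.26 ± 0.32 in labelled Acod1-/- (adjusted p = 0.00314 and 0.0131, edgeR). Timp3, which binds to the matrix, had 0 to 4 counts in every library and 0 in both WT libraries with OI+PM. Relative to total counts, without the scaling used for normalized CPM, 3 counts in these libraries would be 0.0849 and 0.0892 CPM. At this depth no difference in Timp3 was detectable. Intervals and limits of this kind cover counting error only.

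Between OI+PM and vehicle the members kept the directions seen against PM for Mmp12, Mmp9, Timp2 and Mmp19. In each genotype 5 members were called, Mmp8, Mmp12 and Mmp19 higher and Mmp9 and Timp2 lower. Over all genes 16.1% were called in WT (5.38% higher and 10.7% lower) and 13.1% in labelled Acod1-/- (3.88% higher and 9.25% lower). Mmp8 was higher by log2 2.73 ± 0.10 and 3.87 ± 0.11, Mmp12 by 1.73 ± 0.06 and 1.92 ± 0.07, and Mmp19 by 1.68 ± 0.08 and 1.42 ± 0.08 in WT and labelled Acod1-/-, with adjusted p from 2.33e-09 to 2.15e-07 in edgeR. Timp2 was lower by 1.83 ± 0.07 and 1.43 ± 0.07, and Mmp13 was higher by 0.91 ± 0.06 and 0.86 ± 0.06 without reaching the fold threshold. The comparisons of this paragraph share their libraries with those above and are not independent of them.

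Members that followed each other over the 12 libraries are given as a description. The 12 libraries are 6 groups, and shared treatment or genotype may carry the relation, which was not tested. Log2 CPM of Mmp12 and Mmp19 had a Pearson r of 0.98, Mmp12 and Timp2 of -0.914, and Mmp9 and Timp2 of 0.855. Mmp9 and Mmp8 had an r of -0.2. Among 9572 genes with a mean of at least 5 CPM, those most like Mmp9 were Adgre1, the macrophage surface protein by which these cells are often stained (0.973), Ifngr1, an interferon gamma receptor chain (0.963), and Gm13212 (0.955). Those most like Mmp14 were Isg15 (0.991), Tlr2 (0.991) and Rsad2 (0.99), where Isg15 and Rsad2 are interferon-stimulated genes and Tlr2 encodes a receptor for bacterial lipoproteins. Those most like Mmp19 were Srxn1 (0.997), which encodes sulfiredoxin, G6pdx (0.996), the entry enzyme of the pentose phosphate pathway, and Ipo13 (0.996). Gpr141, Papss2 and Idh1 were most like Mmp8 (0.99 to 0.991), Mpp6, Tmem43 and Fbxl5 most like Mmp12 (0.992 to 0.993), Eef1a2, Mapkapk3 and Actr1b most like Mmp13 (0.951 to 0.966), and Ccr3, Ms4a4a and B3glct most like Timp2 (0.983 to 0.989).

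Of 18 other MMP and TIMP genes, 2 passed the filter, Mmp10 and Mmp27. Mmp27, which lies in the chromosome 9 cluster with Mmp8, Mmp12 and Mmp13, had group means of 33.6, 60.9 and 14.0 CPM in WT and 31.8, 55.7 and 19.9 CPM in labelled Acod1-/- with vehicle, PM and OI+PM. OI lowered it by log2 2.12 ± 0.11 in WT and 1.48 ± 0.10 in labelled Acod1-/- (adjusted p = 1.82e-07 and 2.04e-06, edgeR), a fall where Mmp12 and Mmp13 rose. Mmp10 had a mean of 1.39 to 1.92 CPM in the 6 groups and was called in no comparison of treatments or genotypes.

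Genes that activate, bind or inhibit MMPs were listed as 20 genes, of which 15 were tested. With PM in WT, 2 were called higher and 2 lower, and in labelled Acod1-/- 2 higher and 3 lower, where 4.15% and 4.5% of all genes were called, with list medians of -0.27 and -0.27 beside 0.01 and 0.00 over all genes. Lcn2, whose protein lipocalin 2 binds MMP9, rose with PM by log2 2.43 ± 0.36 in WT and 2.78 ± 0.33 in labelled Acod1-/- and fell with OI (-2.88 ± 0.40 and -2.97 ± 0.34), at no more than 4.67 CPM as a group mean. Serpinb2, an inhibitor of urokinase, rose with PM by 4.57 ± 0.26 and 6.51 ± 0.30 and fell with OI (-3.03 ± 0.22 and -2.66 ± 0.19), with group means of 0.11 to 10.3 CPM. Serpine2, an inhibitor of serine proteases such as thrombin and urokinase, fell with PM (-1.54 ± 0.18 and -2.40 ± 0.17), from 2.30 to 0.79 CPM and from 4.30 to 0.81 CPM. Lcn2, Serpinb2 and Serpine2 had group means above 1.5 CPM mainly where they were high, and their being tested depended on those groups. Thbs1, which encodes thrombospondin 1, was higher in labelled Acod1-/- with vehicle by 1.79 ± 0.23 (63.0 against 217 CPM) and in those cells fell with PM (-1.37 ± 0.22) and with OI (-1.15 ± 0.23). Each of these changes had an adjusted p of 0.00328 or less in edgeR.

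The 23 ADAM and ADAMTS genes, relatives of MMPs that shed membrane proteins or cut proteoglycans, had 9 tested members. OI lowered 2 in WT and 1 in labelled Acod1-/- past both thresholds, where 8.49% and 7.98% of all genes were called lower, and none was called higher. The list medians were -0.48 and -0.56, beside 0.02 and 0.00 over all genes. Those lowered were Adam19 (-1.92 ± 0.71 in WT and -2.40 ± 0.33 in labelled Acod1-/-) and, in WT, Adam33 (-1.35 ± 0.31), all at 3.38 CPM or less as means of the groups compared. The fall of Adam19 in WT only just passed, with an adjusted p of 0.05 in edgeR. Adam33 had a group mean above 1.5 CPM only in WT with PM, the group from which it fell. Adam19 was higher in labelled Acod1-/- by log2 2.5 ± 0.30 with vehicle and 2.97 ± 0.35 with PM (adjusted p = 0.00245 and 0.00211, edgeR), at group means of 0.73 against 4.15 CPM and 0.43 against 3.38 CPM, and it passed the filter only through the groups in which it was high. Adamts1, which cuts proteoglycans, was higher by 1.64 ± 0.20, 1.18 ± 0.20 and 1.10 ± 0.23 with vehicle, PM and OI+PM (adjusted p = 0.00248, 0.0145 and 0.0227), with WT group means of 1.78, 1.94 and 1.38 CPM.

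Of 13 other proteases of the matrix, 10 were tested, and only Ctsk, which encodes the collagen-cutting cathepsin K, was called with PM, higher by log2 1.36 ± 0.11 in WT and 1.37 ± 0.11 in labelled Acod1-/- (adjusted p = 2.25e-05 and 1.55e-05, edgeR). Over all genes 4.15% and 4.5% were called with PM. With OI none of the 10 passed both thresholds in edgeR, and by the adjusted p alone 1 was higher and 5 were lower in WT, against 43.9% of all genes. Of 23 matrix substrates, 8 were tested. OI lowered Fn1, which encodes fibronectin (log2 -1.44 ± 0.19 in WT and -1.06 ± 0.19 in labelled Acod1-/-), and the basement membrane gene Nid2 (-3.91 ± 0.51 and -4.27 ± 0.60), the latter from no more than 1.25 CPM. Col4a2, a chain of basement membrane collagen, was lower in labelled Acod1-/- with vehicle (-1.80 ± 0.32, adjusted p = 0.0214, edgeR) and with OI+PM (-2.32 ± 0.42, 0.0136), at no more than 1.91 CPM as a group mean, and in labelled Acod1-/- it rose with PM (1.22 ± 0.35, 0.0318) and fell with OI (-2.17 ± 0.42, 0.00252). Vcan, which encodes the proteoglycan versican, rose with PM by 1.67 ± 0.32 and 1.83 ± 0.29. Vcan had group means above 1.5 CPM only with PM and OI+PM, Col4a2 only in WT with PM and Nid2 only with vehicle, so that each was tested through groups in which it was high.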

How the data were processed

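RNA was sequenced in 12 BMDM libraries. Per the labels, the processing used FastQC 0.11.5, STAR 2.5.3a, Picard 2.9.0 and featureCounts with GRCm38, and the authors deposited unnormalized, unfiltered read counts for each gene (33616577 to 36817898 per library). Of 48795 identifiers, 48349 were matched to a symbol through GENCODE M21. Positions and exonic lengths come from that release, which differs from the authors' in the identifier versions of Mmp8, Mmp13, Mmp14 and Mmp19, so RPKM of these members rest on lengths that may differ. How featureCounts handled strand and reads with several matches is not given in the sources used here.

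Counts were normalized by TMM and tested in edgeR 4.0.16 (R 4.3.3) by quasi-likelihood F tests, fitting 6 group means over all 12 libraries without a block. Genes had a CPM above 1.5 in at least 2 libraries, p-values were adjusted by Benjamini-Hochberg over 11228 genes, and a gene was called where the adjusted p was at most 0.05 and the log2 fold change reached 1 in either direction. Standard errors are those implied by the F statistic, and ± after a level is the SD of 2 libraries. Normalized CPM use the TMM library sizes. The script was tested on simulated data. Alternatives were DESeq2 1.42.0, RLE and total count scaling, 2 other filters, a length offset, a replicate block, the compared groups alone, the adjusted p alone and leaving out each library.

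The members and the lists of other genes were chosen with earlier results of these data known. Genes named from each list of pathway genes are up to 4 of those called, with the largest change in any PM, OI or genotype comparison (Mmp10 was named besides); genes most like a member are the 3 with the highest Pearson r of log2 CPM.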

Additional observations from a re-analysis of the deposited data

How the results depend on the processing

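The number of members called kept its main value of 3 (PM, WT), 3 (PM, labelled Acod1-/-), 5 (OI, WT), 4 (OI, labelled Acod1-/-), 1, 1 and 2 (genotype with vehicle, PM and OI+PM) in DESeq2, with RLE size factors and with a gene length offset. Without the fold threshold it was 7, 6, 6, 7, 5, 4 and 3. Scaling to total counts gave 3 for OI in WT, and fitting the compared groups alone gave 1 for genotype with OI+PM. Total count scaling moved the median of all genes by up to -0.22 (OI+PM against vehicle in WT). Leaving out each library in turn gave 1 to 2 members for genotype with vehicle, 0 to 1 for the interaction with OI and the main value elsewhere; an arm left with 1 library is assumed to vary like the others. Requiring a CPM above 1.5 in every library dropped Mmp14; keeping genes with 10 or more summed counts added Timp1 to the called members of both OI comparisons. The refit with that filter on every library, over fewer genes, called 227, 260, 676, 581, 16, 19 and 29 genes in the 7 comparisons above, where the usual filter gave 466, 505, 1211, 1104, 54, 63 and 103, and 1131 and 871 in place of 1808 and 1475 for OI+PM against vehicle. The 103 genes for genotype with OI+PM became 2 with the compared groups alone and 38 to 347 without single libraries, the 54 with vehicle 32 to 60, and the 0 of the interaction with OI 0 to 44 (44 without replicate 1 of WT with OI+PM), 4 with a length offset and 5 in DESeq2.

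Sign changes occurred only for differences that had not passed. Mmp14 with OI+PM against vehicle in WT was 0.20, and -0.0176 with total count scaling. Without single libraries it ran from -0.0914 to 0.47. Leaving out single libraries moved Mmp19 between genotypes with vehicle from -0.10 to 0.0571, its PM interaction from -0.15 to 0.0085, and the PM interaction of Mmp14 from -0.0665 to 0.14.

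With the replicate number as a block, every count of members stayed at its main value; for Mmp9 between genotypes the values were 2.24, 2.03 and 2.83. Same-numbered libraries had correlations of their deviations from -0.41 to 0.73 with 2 numbers a group, so the numbers are not shown to pair the samples. With the numbers of the labelled Acod1-/- PM libraries exchanged, an alternative chosen after the data were seen, 65 genes were called between genotypes with PM and 61 without the exchange.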
